A study of Mus musculus with 2 samples.

Results

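Capillary endothelium of the mouse sciatic nerve was described from the cells that the authors' deposited cell table calls EC_CAP-PV-. The sources used here do not say what the letters PV stand for. Cells were matched to the count matrices by library and barcode, and a cell was left out where its barcode held at least 5 times as many UMIs (unique transcript molecules counted) in the other library. This kept 76 of 76 cells from injured nerve and 128 of 129 cells from intact nerve, 204 cells among 3641 barcodes in all. The injured cells came from the bridge, the tissue that spans the lesion, 7 days after the sciatic nerve was injured, and the intact cells came from sciatic nerves left uninjured. Both groups were adult mice carrying Cdh5(PAC)-CreERT2, an inducible Cre driven by the endothelial Cdh5 promoter, and R26-TomatoLSL, a reporter that makes tdTomato once Cre has acted. Nerves were pooled within a condition, and tdTomato-positive, CD45-negative cells were sorted, so that cells in which Cre had not acted were not collected. The type of injury and the number of mice are not given in the sources used here. Each condition was 1 library, so there were no replicates and no test was made. All 95% intervals cover counting error only, and effects of the injury cannot be told apart from those of the animals, the sort or the sequencing run.

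Capillaries are the exchange vessels between arterioles and venules. Their endothelium takes up fatty acids from blood: GPIHBP1 holds lipoprotein lipase on the luminal surface, the lipase frees fatty acids from lipoproteins, CD36 helps them into the cell, and FABP4 and FABP5 carry them through it. In peripheral nerve, vessels inside the fascicles form a tight barrier with much claudin-5 and little PLVAP, the protein of the diaphragms over fenestrae and caveolae, while vessels of the outer sheath are more permeable.

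Injured cells of the class held more UMIs than intact ones. Injured EC_CAP-PV- cells held a median of 11917 UMIs (2026 to 50306) and summed to 1051884 UMIs, against a median of 2628.5 UMIs (526 to 14569) and a sum of 485861 UMIs in intact EC_CAP-PV- cells. Reads per cell were not analysed, so sequencing depth and RNA content cannot be told apart here; EC_VEN-PV- cells held medians of 9394 UMIs in injured and 8544 UMIs in intact nerve. The median mitochondrial share was 3.61% in injured and 5.26% in intact cells. The libraries shared 298 barcodes, of which 4 belonged to the kept injured cells and 2 to the kept intact cells of the class. Scrublet called 4 of 2023 injured barcodes (0.198%) and 3 of 1618 intact barcodes (0.185%) doublets, too few for the caller to have worked, and none was in the class. Markers of 12 other cell types summed to between 0 CPM (UMIs of a gene scaled to a fixed library total, here for skeletal muscle) and 84.6 CPM (smooth muscle) in injured cells, and to between 0 CPM (lymphoid) and 224 CPM (pericyte) in intact cells of the class. All 8 pericyte markers were detected in the intact cells, where 7 of 128 cells held at least 5 pericyte UMIs, against 5 of 8 markers and 1 of 76 cells in the injured cells. Schwann cell markers gave 55 UMIs in 37 of 76 injured cells and 23 UMIs in 20 of 128 intact cells, with Sox10 at 0 UMIs in both. Myeloid markers gave 28 UMIs in 16 injured cells and 12 UMIs in 11 intact cells, with Ptprc and Csf1r at 0 UMIs in both. The part of these UMIs in the results was not tested.

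Of the 19 genes that led the class over the other endothelial classes in either library, 11 had a promoter window in RefSeq (GRCm38.p6). The 4 windows below are shown because Timp4, Aqp7, Cd36 and Rbp7 were among those 19 genes, which stood above the other classes pooled. Each holds the 250 bases before the start in that table, 5′ to 3′ on the gene's own strand, which is the minus strand for all 4.
Timp4: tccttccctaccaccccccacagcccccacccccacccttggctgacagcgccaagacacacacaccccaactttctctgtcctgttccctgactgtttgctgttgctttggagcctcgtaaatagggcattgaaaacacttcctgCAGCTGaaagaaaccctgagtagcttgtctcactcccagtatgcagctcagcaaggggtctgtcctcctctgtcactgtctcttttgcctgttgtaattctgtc
Aqp7: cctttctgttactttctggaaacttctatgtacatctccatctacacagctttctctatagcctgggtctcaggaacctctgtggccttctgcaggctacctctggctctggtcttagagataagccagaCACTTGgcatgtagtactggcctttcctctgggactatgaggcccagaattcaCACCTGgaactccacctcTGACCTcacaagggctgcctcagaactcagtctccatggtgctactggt
Cd36: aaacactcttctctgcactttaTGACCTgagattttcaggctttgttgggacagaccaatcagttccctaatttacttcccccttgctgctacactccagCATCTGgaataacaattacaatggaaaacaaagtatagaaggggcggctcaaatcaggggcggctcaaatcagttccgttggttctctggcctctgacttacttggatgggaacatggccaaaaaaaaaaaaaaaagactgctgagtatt
Rbp7: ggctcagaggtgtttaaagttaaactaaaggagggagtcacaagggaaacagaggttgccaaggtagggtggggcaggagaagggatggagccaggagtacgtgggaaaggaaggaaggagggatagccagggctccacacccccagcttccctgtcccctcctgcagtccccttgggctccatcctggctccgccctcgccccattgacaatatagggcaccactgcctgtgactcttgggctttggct
They lie at chr6:115252206-115252455 (Timp4), chr4:41048137-41048386 (Aqp7, the first of 2 starts in the table), chr5:17835897-17836146 (Cd36, within the span of the annotated gene) and chr4:149454969-149455218 (Rbp7). Capitals mark, on either strand, AGGTCA, the core motif bound by PPAR-gamma and related nuclear receptors, and CANNTG, the E-box bound by basic helix-loop-helix factors such as Tcf15. Among 32851 windows of the same length, 14.0% held AGGTCA and 66.2% held CANNTG. Aqp7 and Cd36 held both motifs, Timp4 held an E-box only, and Rbp7 held neither. No 2 of the matches overlapped, and a match is a string of letters, not a measured binding site.

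The label was checked against 6 capillary marker genes. In injured nerve all 6 were at least 2-fold higher in EC_CAP-PV- than in the other 8 endothelial classes pooled, and in intact nerve 5 of 6 were, all but Car4. Taking every gene that averaged 20 CPM or more, 1.41% of 5974 in injured nerve and 4.34% of 6134 in intact nerve were that much higher in the class. Classes of this kind are drawn from the cells' own transcripts, so differences between classes are descriptions. Log2 ratios here have 5 CPM added to both values, and ratios and folds have nothing added.

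Gpihbp1, the anchor of lipoprotein lipase, was at 1549 CPM in injured and 1618 CPM in intact EC_CAP-PV- cells, against 301 CPM and 137 CPM in the other classes. Cd300lg, a sialomucin of capillary and venular endothelium also called nepmucin, was at 550.4 CPM in injured and 1000.3 CPM in intact cells of the class, against 68.0 CPM and 136 CPM in the others. Rgcc, a regulator of the cell cycle, was at 818 CPM in injured and 1021 CPM in intact cells of the class, against 285 CPM and 103 CPM in the others. These 3 markers stood above the other classes pooled in both libraries, but not above every class: in injured nerve EC_CAP-PV+ held Cd300lg at 679.6 CPM and Rgcc at 899 CPM. Timp4, an inhibitor of matrix metalloproteases, was at 55.1 CPM in injured and 745 CPM in intact cells of the class, against 0.581 CPM and 13.1 CPM in the others. Btnl9, a butyrophilin-like membrane protein, was at 59.9 CPM in injured and 163 CPM in intact cells of the class, against 2.69 CPM and 13.8 CPM in the others. Car4, a carbonic anhydrase tethered to the luminal surface, was at 50.4 CPM in injured and 173 CPM in intact cells of the class, against 2.48 CPM and 308 CPM in the others. In intact nerve Car4 was therefore not a gene of the class alone: it reached 955 CPM in EC_VEN-PV- and 543 CPM in EC_BAR. Few injured cells carried the last 3 markers: Car4 was found in 7, Btnl9 in 15 and Timp4 in 17 of 76 cells, and 3 cells held 83.0% of the Car4 UMIs, 66.7% of the Btnl9 UMIs and 55.2% of the Timp4 UMIs.

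**Figure D1:**
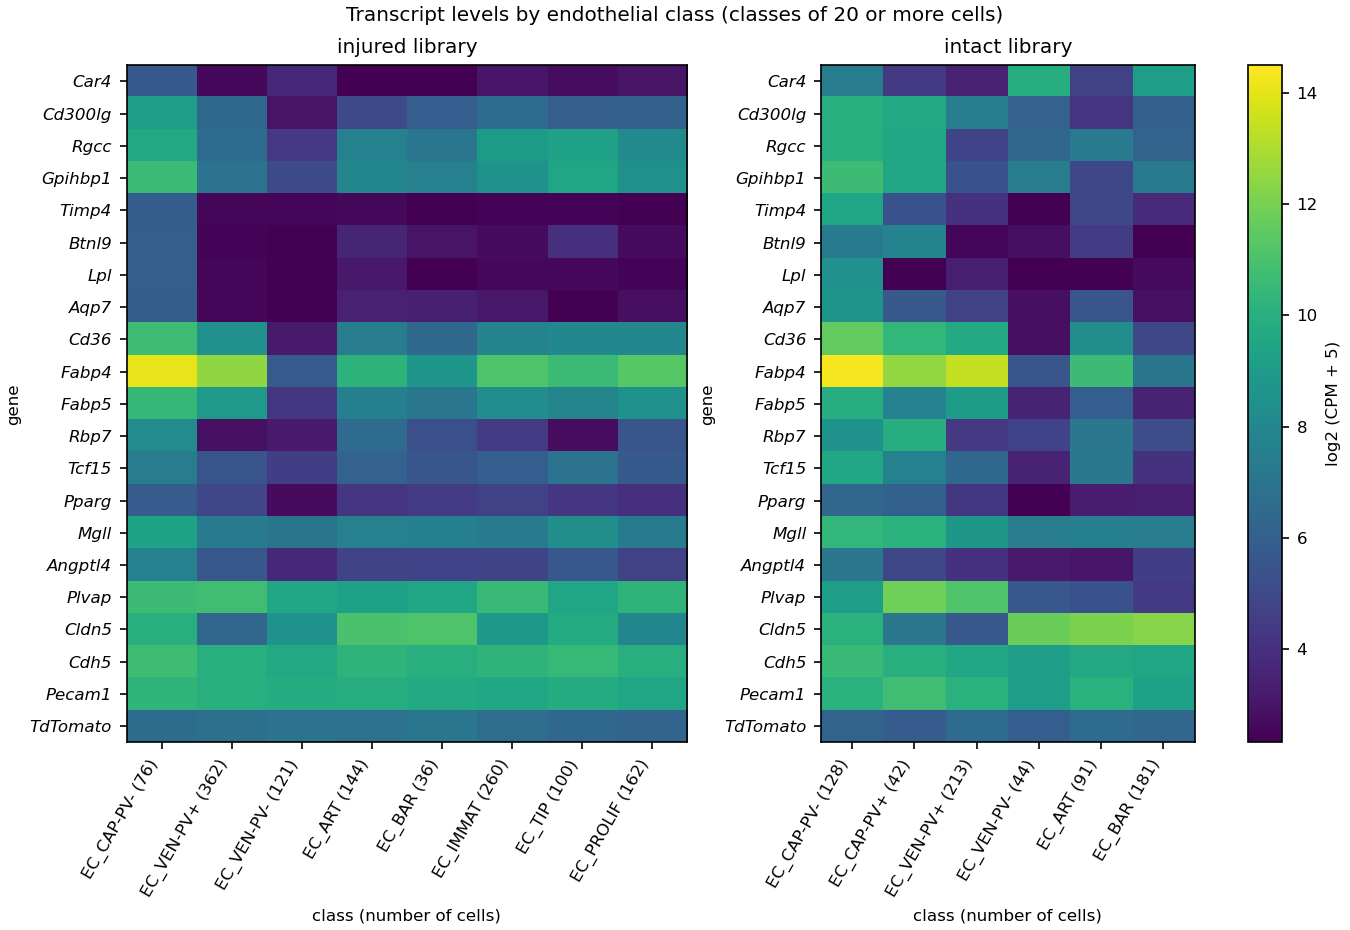
Colour shows the transcript level, log2 of CPM with 5 added, of 21 genes (rows) in each endothelial class with at least 20 cells (columns, number of cells in brackets) of the injured library (left) and the intact library (right). EC_CAP-PV- is the first column of each panel and has the highest Fabp4 level of any class shown, 16981 CPM in injured and 20415 CPM in intact nerve.

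Of the markers that endothelial cells share, Cdh5 and Pecam1 were detected in most cells of the class. Cdh5, the endothelial cadherin, was at 1681 CPM in injured and 1519 CPM in intact EC_CAP-PV- cells, and Pecam1, a junctional adhesion protein, at 1245 CPM and 1087 CPM. Cdh5 was found in 76 of 76 injured and 115 of 128 intact cells, and Pecam1 in 76 of 76 and 104 of 128. The TdTomato reporter was at 94.1 CPM in injured and 67.9 CPM in intact cells (ratio 1.39, 0.926 to 2.12), which is within counting error of no difference. Arterial markers summed to 933 CPM in injured and 984 CPM in intact cells of the class, against 4717 CPM and 6461 CPM in EC_ART. Venous markers summed to 2491 CPM in injured and 1272 CPM in intact cells, against 8581 CPM and 9489 CPM in EC_VEN-PV+. Both sums lay under those of the vessels they mark, and the venous sum was higher in injured capillary cells than in intact ones. Among its members, Lrg1 was at 653 CPM in injured and 78.2 CPM in intact cells, and Tmem252 at 435 CPM and 18.5 CPM. Of 10 venous markers measured, 3 were at least 2-fold higher in injured cells, 0 were lower and 7 lay between. Among all genes measured, 5.35% were that much higher. Barrier transporters summed to 1020.1 CPM in injured and 1665 CPM in intact cells, against 2872 CPM and 7139 CPM in EC_BAR, and tip-cell markers to 1175 CPM and 823 CPM. S phase genes summed to 237 CPM and 247 CPM, and G2/M genes to 57.0 CPM and 10.3 CPM.

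Per-cell markers were compared after every cell was thinned to 2000 UMIs, which left 76 injured and 80 intact cells; the intact cells lost had fewer UMIs than that. At least 3 of the 6 capillary markers were seen in 32 of 76 injured cells (42.1%) and in 59 of 80 intact cells (73.8%). In arterial EC_ART cells this held for 0 of 139 injured cells, which allows a share of up to 2.16%, and for 1 of 69 intact cells (1.45%). In EC_VEN-PV+ it held for 7 of 359 injured cells (1.95%) and 1 of 202 intact cells (0.495%), and in EC_VEN-PV- for 0 of 120 injured cells, which allows up to 2.50%, and 2 of 44 intact cells (4.55%). It held for 1 of 35 injured and 8 of 145 intact EC_BAR cells, and for 9 of 257 injured EC_IMMAT cells. This share was not computed for EC_CAP-PV+, EC_TIP or EC_PROLIF, so the contrast above leaves out the other capillary class. By summed marker UMIs, another measure, other classes were nearer: the median was 5 UMIs per intact EC_CAP-PV+ cell, against 9 in EC_CAP-PV-. In injured EC_TIP cells the median was 2 UMIs, against 6 in EC_CAP-PV-. Median depths before thinning were 11917 UMIs in injured and 4432.5 UMIs in intact EC_CAP-PV- cells, against 11756 UMIs and 5950.0 UMIs in EC_ART, 10278 UMIs and 5310.5 UMIs in EC_VEN-PV+, and 9434.5 UMIs and 8544 UMIs in EC_VEN-PV-. Gpihbp1 was seen in 88.2% of injured and 82.5% of intact thinned cells (98.7% and 85.9% unthinned), against 25 of 139 injured and 2 of 69 intact EC_ART cells, 59 of 359 and 9 of 202 EC_VEN-PV+ cells, and 10 of 120 and 11 of 44 EC_VEN-PV- cells. Timp4 was seen in 9.21% of injured and 57.5% of intact thinned cells (22.4% and 61.7% unthinned). After thinning, a Timp4 UMI was seen in 2 of 139 injured and 4 of 69 intact EC_ART cells, in 1 of 359 and 4 of 202 EC_VEN-PV+ cells, and in 0 of 120 and 0 of 44 EC_VEN-PV- cells, which allows shares of cells with a UMI of up to 2.50% and 6.82%.

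Genes of fatty acid uptake and lipid handling, a list that also holds the marker Gpihbp1, were higher in the class than in the other classes pooled. Of the 15 listed genes measured in each library, 11 were at least 2-fold higher in EC_CAP-PV- than in the other classes in injured nerve and 10 in intact nerve, with median log2 ratios of 1.85 and 2.30 against -0.03 and 0.11 over all measured genes. Median-ratio scaling moved the intact median over all genes by 0.11. The background shares were 1.41% and 4.34%, as above. Fabp4, the fatty acid carrier, was at 16981 CPM in injured and 20415 CPM in intact cells of the class, against 2844 CPM and 4153 CPM in the others. Cd36, the fatty acid receptor, was at 1665 CPM in injured and 3056 CPM in intact cells, against 239.6 CPM and 419 CPM in the others. Other classes held these transcripts too: in intact nerve Fabp4 was at 10611 CPM in EC_VEN-PV+ and 5905 CPM in EC_CAP-PV+, and Mgll, the monoacylglycerol lipase, at 1338 CPM in EC_CAP-PV-, 1089.6 CPM in EC_CAP-PV+ and 436 CPM in EC_VEN-PV+. Fabp4 and Cd36 were seen together in 65 of 76 injured and 78 of 80 intact thinned cells.

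Lpl, the lipase itself (chr8:68880491-68907448, plus strand, GRCm38), was the gene that led the class most in intact nerve. It was at 59.9 CPM in injured and 356 CPM in intact EC_CAP-PV- cells, against 1.16 CPM and 2.47 CPM in the other classes, ratios of 51.6 and 144. In injured nerve 3 cells held 49.2% of its UMIs, and without the 3 highest cells of each group the class levels were 31.5 CPM in injured and 326 CPM in intact cells. Aqp7, a channel for glycerol and water, was at 56.1 CPM in injured and 391 CPM in intact cells, against 2.32 CPM and 18.5 CPM in the others. Tcf15, a transcription factor that with Meox2 drives fatty acid uptake genes in mouse heart and muscle endothelium, was at 177 CPM in injured and 749 CPM in intact cells, against 55.5 CPM and 64.6 CPM in the others. Of the thinned cells with Lpl, 11 of 11 in injured and 28 of 32 in intact nerve also held Gpihbp1. Most cells of the class held Gpihbp1 with or without Lpl: 56 injured and 38 intact cells held it without Lpl, and 9 and 10 held neither. Markers of adipocytes, cells that also express Lpl and Fabp4, summed to 1 UMI in injured and 4 UMIs in intact cells, and Plin1 was at 0 UMIs in both.

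Across 5403 genes measured in both libraries, 79 were at least 2-fold higher in the class in injured nerve and 190 in intact nerve, and 42 were in both sets, 53.2% of the injured set and 22.1% of the intact set. The shared genes included Lpl, Timp4, Aqp7, Gpihbp1, Btnl9, Angptl4, Cd36, Cd300lg, Pparg, Fabp4, Fabp5, Mgll and Rbp7. For genes at least 2-fold lower in the class, 54 were shared, 67.5% of the 80 in injured nerve and 28.6% of the 189 in intact nerve. Over each library's measured genes, 1.98% in injured and 4.43% in intact nerve were that much lower.

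Of the further leading genes, Rbp7 and Ednrb were at least 2-fold higher in the class in both libraries. Among genes reaching 100 CPM and 30 UMIs, Rbp7, a retinol-binding protein, had the highest log2 ratio in injured nerve, 3.26. Timp4 (3.43) and Lpl (3.40) had higher ratios there at levels under that minimum. Rbp7 was at 284 CPM in injured and 360.2 CPM in intact cells of the class, against 25.3 CPM and 84.8 CPM in the others. Of its injured UMIs, 51.5% lay in 3 cells, and in intact nerve Rbp7 was lower in EC_CAP-PV- than in EC_CAP-PV+. Ednrb, an endothelin receptor, was at 106 CPM in injured and 88.5 CPM in intact cells of the class, against 13.6 CPM and 20.5 CPM. Ucp2, a mitochondrial carrier, was at 159.7 CPM in injured and 128 CPM in intact cells of the class, against 38.7 CPM and 85.8 CPM. Slc28a2, a nucleoside transporter, was by contrast a gene of the intact class, with 6.65 CPM in injured and 165 CPM in intact cells against 1.21 CPM and 2.22 CPM in the others. Kcna5, a voltage-gated potassium channel, was at 17.1 CPM in injured and 105 CPM in intact cells, against 11.7 CPM and 6.66 CPM. Cxcl9, a chemokine induced by interferon-gamma, was at 18.1 CPM in injured and 123 CPM in intact cells, against 10.3 CPM and 1.73 CPM, and 3 of the 128 intact cells held 41.7% of its UMIs.

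Several genes lowest in the class are known for other vessels. Selp, the P-selectin of venules, was at 81.8 CPM in injured and 2.06 CPM in intact cells of the class, against 546 CPM and 426 CPM in the others. Ackr1, a chemokine receptor of venules, was at 29.5 CPM in injured and 2.06 CPM in intact cells, against 237 CPM and 234 CPM, and 3 injured cells held 93.5% of its UMIs. Mgp, a matrix protein of arteries, was at 63.7 CPM in injured and 32.9 CPM in intact cells, against 379 CPM and 849 CPM, and 3 injured cells held 73.1% of its UMIs. Slco1a4, an organic anion transporter of barrier vessels, was at 0 UMIs in injured and 2 UMIs in intact cells of the class, against 6.81 CPM and 495 CPM in the others. Ptn, the secreted growth factor pleiotrophin, was at 1.90 CPM in injured and 2.06 CPM in intact cells, against 53.0 CPM and 1220.3 CPM.

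The class most like it by name, EC_CAP-PV+, differed in barrier and lipid genes. In intact nerve Plvap was 6.62-fold lower (5.73 to 7.66) in EC_CAP-PV- than in EC_CAP-PV+, at 541 CPM against 3582 CPM. Cldn5, the main claudin of endothelial tight junctions, was 7.79-fold higher (5.26 to 12.04), at 1076 CPM against 138 CPM. Fabp4 was 3.46-fold higher (3.25 to 3.68) and Timp4 20.03-fold higher (9.62 to 50.2) in EC_CAP-PV-. Lpl was at least 22.3-fold higher, since 42 EC_CAP-PV+ cells held 0 Lpl UMIs and 3 counts over that class were taken as the limit. Of the other markers, Car4 was 10.8-fold higher (3.59 to 53.6), Gpihbp1 2.29-fold higher (1.90 to 2.77), Rgcc 1.36-fold higher (1.13 to 1.65) and Cd300lg 1.23-fold higher (1.02 to 1.48), and Btnl9 was 1.31-fold lower (0.871 to 1.94). Rbp7 was 2.66-fold lower (2.15 to 3.29). The injured library held 13 EC_CAP-PV+ cells, and there Plvap was 1.55-fold lower (1.34 to 1.78) in EC_CAP-PV-, at 1637 CPM against 2534 CPM.

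EC_CAP-PV- cells made up a smaller share of the injured endothelium. They were 76 of 1274 endothelial cells (5.97%, exact interval 4.73 to 7.41) in injured nerve and 128 of 718 (17.8%, 15.1 to 20.8) in intact nerve, a share 2.99-fold lower (2.23 to 4.02). Among cells with at least 3000 UMIs the share was 5.81% in injured and 12.2% in intact nerve, 2.11-fold lower (1.47 to 3.02). A lower share cannot be told apart from more cells of other classes, such as EC_IMMAT with 260 injured and 4 intact cells and EC_PROLIF with 162 injured and 11 intact cells.

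Within the class, injured cells differed most from intact cells in matrix genes, of which 11 of 20 were at least 2-fold higher, and in luminal and detoxifying enzymes, of which 9 of 13 were at least 2-fold lower. Of 6095 genes averaging 20 CPM or more, 326 were at least 2-fold higher (5.35%) and 487 at least 2-fold lower (7.99%) in injured cells, and the median log2 ratio was -0.06. Without cells holding at least 5 UMIs of other cell types, a choice made after seeing the data, the counts were 393 and 623. This choice left out 26 of 76 injured and 24 of 128 intact cells of the class. With each cell thinned to 2000 UMIs the counts were 680 and 864. Both settings change which genes count as measured, so these counts are not shares of the 6095 genes.

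The named gene with the highest log2 ratio was Col18a1 (chr10:77052178-77166548, minus strand), the basement membrane collagen from which endostatin is cut, at 509 CPM in injured and 12.3 CPM in intact cells, a ratio of 41.2 (18.8 to 113). It was found in 66 of 76 injured and 3 of 128 intact cells. Tmem252, a membrane protein, was at 435 CPM in injured and 18.5 CPM in intact cells, a ratio of 23.5 (12.3 to 51.7). Chga, the granule protein chromogranin A, had 131 UMIs in injured cells and 0 in intact ones, at least 20.2-fold higher when 3 counts over the group are taken as the limit. Mest, an imprinted gene, was at 480.1 CPM in injured and 32.9 CPM in intact cells, a ratio of 14.6 (8.89 to 25.7). Lrg1, a secreted glycoprotein that acts on TGF-beta signalling, was at 653 CPM in injured and 78.2 CPM in intact cells, a ratio of 8.35 (6.02 to 11.9). Ratios also stood high for Fam167b, AA467197, Lgals3, Marcksl1, Fkbp10 and Cd63, from 6.53 to 22.0.

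Among the genes lowest in injured cells, several were the class's own. Timp4 was 13.5-fold lower (10.2 to 18.2), Aqp7 6.97-fold lower (5.18 to 9.50) and Slc28a2 24.7-fold lower (11.5 to 63.5). Fmo1, a flavin monooxygenase, was at 12.4 CPM in injured and 216 CPM in intact cells, 17.5-fold lower (9.79 to 33.9). Xdh, which makes uric acid from purines, was at 21.9 CPM in injured and 298 CPM in intact cells, 13.6-fold lower (8.75 to 22.2). Cst3, the protease inhibitor cystatin C, was the most abundant of them, at 573 CPM in injured and 3674 CPM in intact cells, 6.41-fold lower (5.84 to 7.04). The lowest log2 ratio among the named genes belonged to Rgs5, a pericyte marker, at 6.65 CPM in injured and 187 CPM in intact cells, with 56.0% of its intact UMIs in 3 cells. Its log2 ratio was -4.04, and -3.26 without cells holding at least 5 UMIs of other cell types, and the part of pericyte RNA in it was not tested. Lnx1, Pcp4l1, Clic5, AC158355.1 and AU020206 were 6.87- to 10.6-fold lower.

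**Figure D2:**
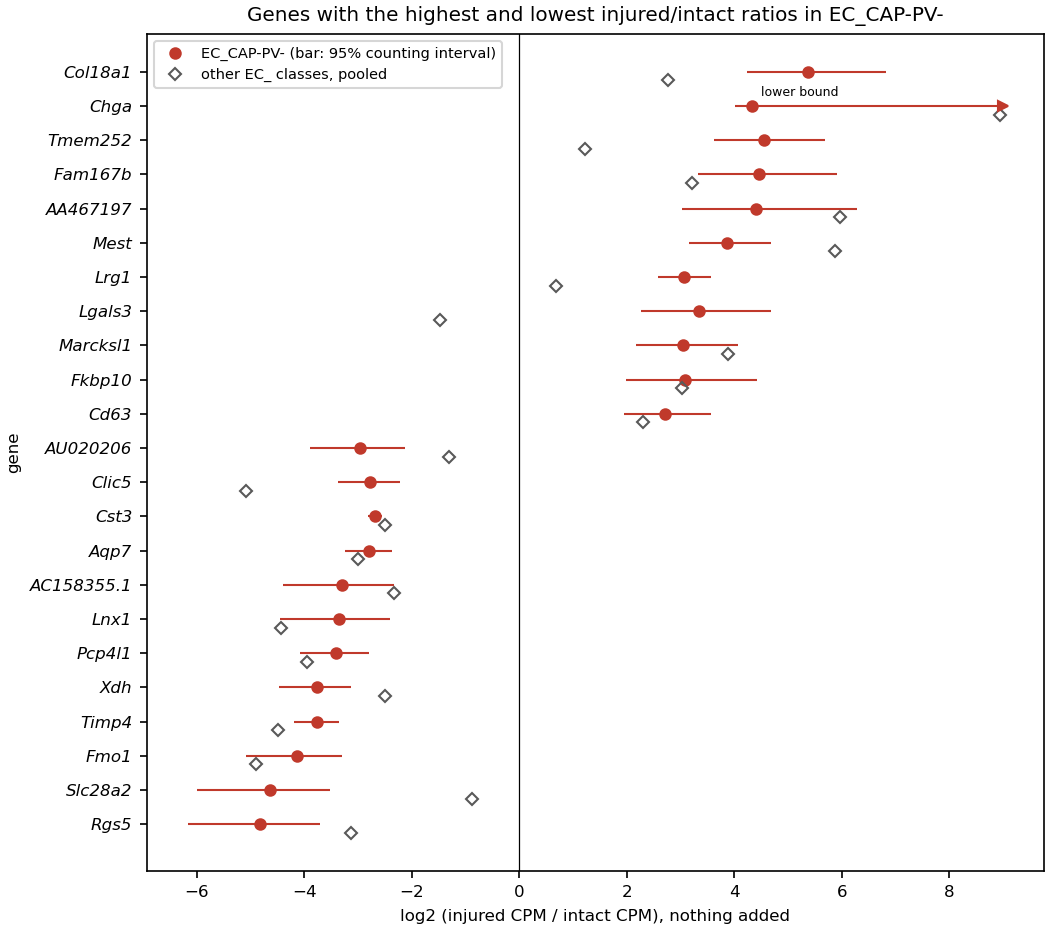
The horizontal axis gives the log2 ratio of injured over intact CPM, with nothing added, for 11 of the highest and the 12 lowest named genes of EC_CAP-PV- (filled points with 95% counting intervals) and for the same genes in the other endothelial classes pooled (open diamonds). Chga is drawn at its lower bound with no upper end, and Lgals3 is the gene whose diamond lies on the other side of 0 from its point.

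Fatty acid and lipid genes did not move together. Of 16 measured, 1 was at least 2-fold higher and 5 at least 2-fold lower in injured cells, with a median log2 ratio of -0.37 against -0.06 over all genes. The lower ones were Aqp7, Lpl (5.95-fold, 4.43 to 8.06), Tcf15 (4.24-fold, 3.54 to 5.08), Slc27a3, a fatty acid transport protein (3.66-fold, 1.77 to 7.92), and Mgll (2.03-fold, 1.82 to 2.26). The higher one was Hilpda, a hypoxia-inducible lipid droplet protein, at 55.1 CPM in injured and 4.12 CPM in intact cells, a ratio of 13.4 (3.54 to 113), with 56.9% of its injured UMIs in 3 cells. The most abundant members lay between, with Fabp4 1.20-fold lower (1.17 to 1.23), Cd36 1.84-fold lower (1.71 to 1.97), Gpihbp1 at a ratio of 0.957 (0.879 to 1.04) and Fabp5 at a ratio of 1.47 (1.32 to 1.63). Cell by cell the ranges overlapped: the list summed to a median of 37.0 UMIs per thinned cell (2 to 247) in injured and 54.0 UMIs (3 to 212) in intact nerve.

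**Figure D3:**
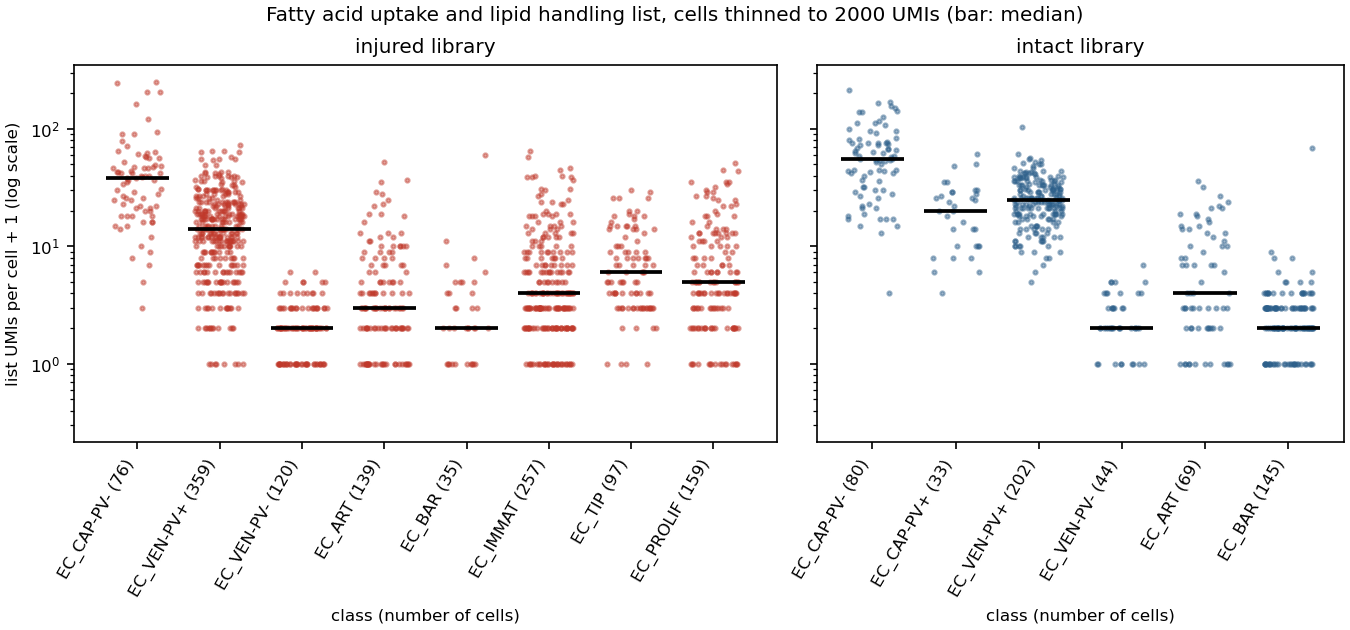
Each point is a cell thinned to 2000 UMIs, and the vertical axis is its summed UMIs of the fatty acid and lipid list plus 1 on a log scale, by endothelial class with the number of cells in brackets, for the injured library (left) and the intact library (right). Bars are medians, and EC_CAP-PV- has the highest median in both, 37.0 UMIs in injured and 54.0 UMIs in intact nerve before the 1 is added.

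Among barrier and permeability genes, Plvap was higher in injured cells, while Cldn5 depended on the cells kept. Plvap (chr8:71497765-71511752, minus strand) was at 1637 CPM in injured and 541 CPM in intact cells, a ratio of 3.02 (2.65 to 3.46), whereas Cldn5 was at 1029.6 CPM and 1076 CPM, a ratio of 0.956 (0.861 to 1.06). The Cldn5 log2 ratio was -0.06, and -0.76 in cells with under 5% mitochondrial UMIs, and 3 cells held 26.1% of its injured and 30.2% of its intact UMIs. In thinned cells, Plvap and Cldn5 were seen together in 43 of 76 injured and 12 of 80 intact cells, and Plvap was seen without Cldn5 in 23 injured and 17 intact cells. Cldn5 without Plvap was seen in 8 injured and 36 intact cells. Plvap alone or with Cldn5 was in 86.8% of injured and 36.3% of intact thinned cells (94.7% and 38.3% unthinned), against 68.6% and 3.45% in the barrier class EC_BAR. Of 10 diaphragm and caveola genes, 3 were at least 2-fold higher and 2 at least 2-fold lower: besides Plvap, Emp1, a small membrane protein, had a ratio of 3.88 (2.95 to 5.17) and the caveola coat gene Cavin3 a ratio of 2.03 (1.71 to 2.43), while Cavin2 was 2.81-fold lower (2.52 to 3.15) and Cavin1 2.40-fold lower (2.14 to 2.69). The median log2 ratio of this list was 0.00. All list counts here and below stand against 5.35% higher and 7.99% lower among all genes measured, and a count of 1 or 2 in a list of this size is given as values only. Of 12 junction genes (median -0.27) none was at least 2-fold higher and 2 were lower, the junctional adhesion molecules Jam3 (3.39-fold, 2.21 to 5.27) and Jam2 (2.30-fold, 1.95 to 2.70). None of 7 measured Wnt target and barrier regulator genes (median -0.47) passed 2-fold in either direction.

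Matrix genes were the list with the highest median. Of 20 genes of basement membrane and matrix, 11 passed 2-fold as higher in injured cells and 1 as lower, and the median log2 ratio was 1.09. The other classes pooled were alike in this list, with 13 of 21 higher, 1 lower and a median of 1.23. Over all genes measured there, 5.24% were higher and 7.39% lower. Mmp14, a membrane-bound matrix metalloprotease, had 94 UMIs in injured and 1 UMI in intact cells, a ratio of 43.4 (7.61 to 1733). Nid2, a basement membrane linker, was at 159 CPM in injured and 32.9 CPM in intact cells, a ratio of 4.82 (2.88 to 8.63). Collagen IV was among them, with log2 ratios of 1.64 for Col4a1 and 1.28 for Col4a2. Lamb2, the laminin beta-2 chain, was the member lower in injured cells (2.33-fold, 1.64 to 3.29), with a log2 ratio of -0.65 at the least over the settings tried. The list summed to a median of 30.0 UMIs per thinned cell (13 to 56) in injured and 16.0 UMIs (4 to 42) in intact nerve. Of 25 migration and cytoskeleton genes (median 0.39) 6 were higher and 1 lower. Vim, the intermediate filament vimentin, was at 7280.3 CPM in injured and 1379 CPM in intact cells, a ratio of 5.28 (4.88 to 5.72), and the collagen receptor subunit Itga1 was 3.36-fold lower (2.71 to 4.19).

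**Figure D4:**
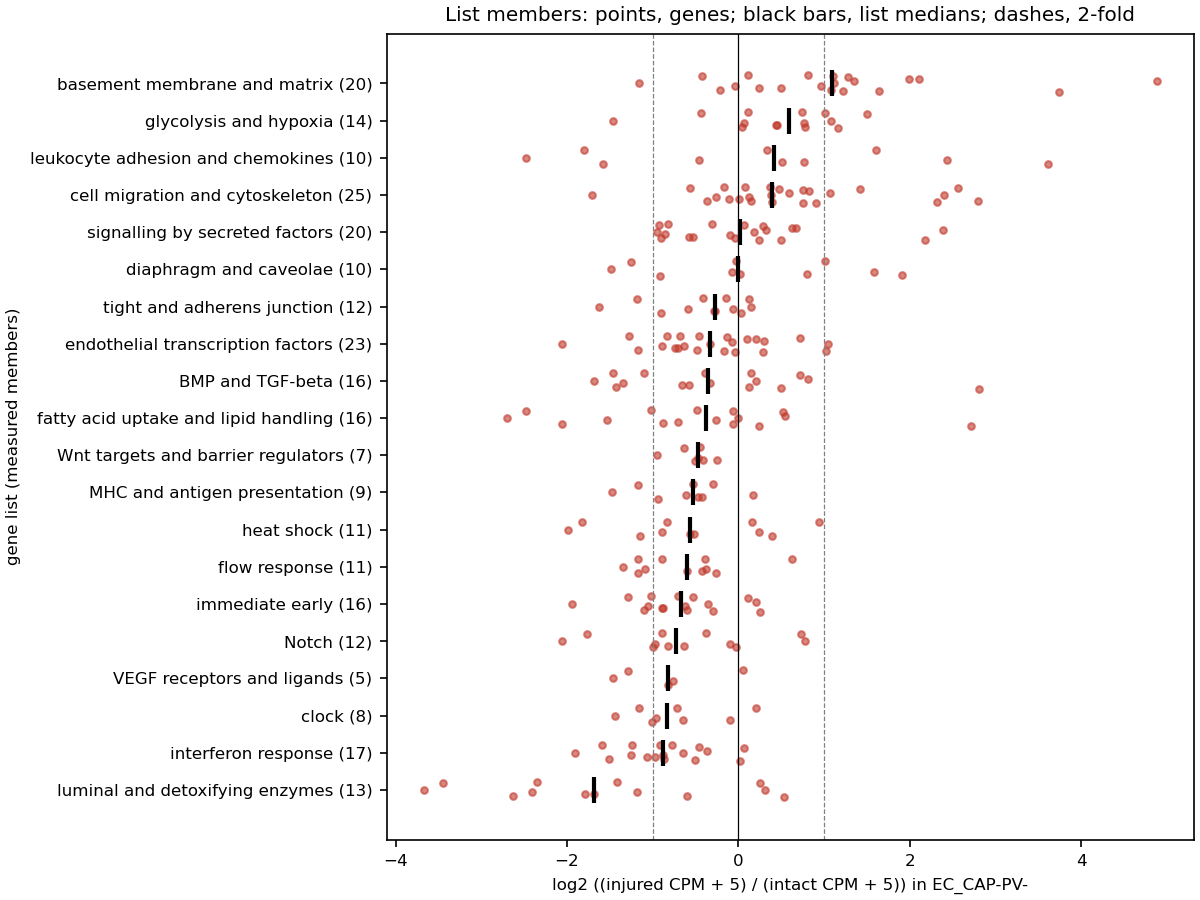
Each point is a measured gene of a list (rows, number of measured genes in brackets), the horizontal axis is its log2 ratio of injured over intact CPM with 5 CPM added in EC_CAP-PV-, and black bars are list medians. The matrix list has the highest median, 1.09, and the luminal and detoxifying enzyme list the lowest, -1.68.

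Luminal and detoxifying enzymes had the lowest median, -1.68, with none of 13 at least 2-fold higher and 9 at least 2-fold lower in injured cells. Besides Fmo1 they included Alpl, the tissue-nonspecific alkaline phosphatase, with 1 UMI in injured and 29 UMIs in intact cells, 62.8-fold lower (10.4 to 2564), and Adh1, an alcohol dehydrogenase, 13.0-fold lower (4.46 to 51.5). Car4, a member of this list too, was 3.43-fold lower (2.40 to 4.93); without the 3 highest cells of each group its levels were 9.19 CPM in injured and 154 CPM in intact cells, and without every shared barcode its log2 ratio was -2.56, against -1.68. The same list in the other classes held 9 lower genes of 13, with a median of -1.58. Background shares there were 5.24% higher and 7.39% lower of 6105 genes.

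Receptor and pathway lists had medians under 0, and the secreted-factor list did not. Of 5 VEGF receptor and ligand genes (median -0.82) 2 were at least 2-fold lower and none higher: Nrp1, a co-receptor, was at 278 CPM in injured and 772 CPM in intact cells, 2.78-fold lower (2.38 to 3.25), and Flt1, a VEGF receptor, at 658 CPM and 1612 CPM, 2.45-fold lower (2.21 to 2.72). Of 12 Notch genes (median -0.73) 2 were lower, the target Hes1 (4.28-fold, 3.53 to 5.19) and the ligand Dll4 (3.60-fold, 2.60 to 5.01), and none was higher. Of 16 BMP and TGF-beta genes (median -0.35, between -0.40 and 0.13 over the settings tried) 5 were lower, among them the BMP targets Id1 (3.24-fold, 2.84 to 3.71) and Id2 (2.92-fold, 2.05 to 4.19), and 1 was higher, Tgfbi, a secreted matrix protein induced by TGF-beta, with a ratio of 11.9 (3.91 to 58.7). Of 11 flow-response genes (median -0.60) 4 were lower, including Klf4, a transcription factor induced by laminar flow (2.26-fold, 2.03 to 2.52). Of 20 secreted-factor genes (median 0.02) 2 were higher: Igfbp4, an IGF-binding protein, had a ratio of 4.86 (3.27 to 7.50), and Apln, the ligand apelin, a ratio of 7.30 (2.999 to 23.1), with 65.8% of its injured UMIs in 3 cells. In the other classes pooled, 2 of 6 VEGF (median -0.16), 4 of 12 Notch (-0.56) and 5 of 16 BMP and TGF-beta genes (-0.63) were lower. So were 5 of 11 flow-response genes (-0.67). Of 24 secreted-factor genes there (-0.45), 5 were higher and 7 lower. Among all genes measured there, 5.24% were higher and 7.39% lower.

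Of 23 endothelial transcription factors 2 were at least 2-fold higher and 3 lower, with a median of -0.33, against 5.35% higher and 7.99% lower among all genes. Meox1 had a ratio of 2.14 (1.34 to 3.57) and Prdm1 of 2.44 (1.07 to 6.49), while Tcf15, Klf4 and Gata2 (2.60-fold, 1.67 to 4.06) were lower. All but Tcf15 were under 2-fold in at least 1 other setting, with log2 ratios of 0.70 for Meox1, 0.68 for Prdm1, -0.70 for Gata2 and -0.96 for Klf4 at the least. Pparg, the lipid-sensing nuclear receptor, was at 53.2 CPM in injured and 76.2 CPM in intact cells, 1.43-fold lower (0.918 to 2.21), which counting error does not separate from no difference.

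Interferon, MHC, immediate early, heat shock and clock lists had medians under 0. None of 17 interferon-response genes was at least 2-fold higher and 6 were lower (median -0.88), such as Isg15, a ubiquitin-like protein (2.98-fold, 2.20 to 4.05), and Ifit1, which binds viral RNA (4.58-fold, 2.51 to 8.70). Of 9 MHC and antigen-presentation genes (median -0.53) 2 were lower, Psmb9, an immunoproteasome subunit (2.92-fold, 2.13 to 4.01), and H2-Q4, a class Ib gene with near-identical relatives (2.29-fold, 1.87 to 2.81). The H2-Q4 log2 ratio was -0.79 at the least over the settings tried. Of 16 immediate early genes (median -0.66) 5 were lower, including Btg2 (2.45-fold, 2.20 to 2.73) and Ier2 (2.15-fold, 1.91 to 2.43), and of 11 heat shock genes (median -0.56) 3 were lower, led by Hspa1b and Hspa1a, near-identical copies whose counts may be split between them. Of 8 clock genes (median -0.83) 3 were lower, among them Dbp, a clock output factor (3.003-fold, 1.85 to 4.93). These lists were also low in the other classes pooled, where 7.39% of all genes were at least 2-fold lower. There, 15 of 18 interferon (median -1.92), 3 of 10 MHC (-0.65) and 12 of 16 immediate early genes (-1.31) were lower. So were 3 of 11 heat shock (-0.32) and 6 of 9 clock genes (-1.35).

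Adhesion and chemokine genes split. Of 10 measured, 3 were at least 2-fold higher and 3 at least 2-fold lower, with a median of 0.42 that lay between -0.54 and 0.75 over the settings tried. Selp had 86 UMIs in 20 of 76 injured cells and 1 UMI in intact cells, a ratio of 39.7 (6.94 to 1587), with 57.0% of its injured UMIs in 3 cells, and the neutrophil chemokine Cxcl1 a ratio of 6.93 (3.25 to 17.7). Cxcl10 had a ratio of 3.76 (1.71 to 9.77), but 3 cells held 80.7% of its injured UMIs. Cxcl9 was 6.84-fold lower (4.02 to 12.1), and Cxcl12, the ligand of CXCR4, was the most abundant of the lower ones, at 886 CPM in injured and 3091 CPM in intact cells, 3.49-fold lower (3.21 to 3.79). Cd200, an inhibitory ligand for myeloid cells, was 3.02-fold lower (2.63 to 3.47). Of 14 glycolysis and hypoxia genes (median 0.60) 4 were higher, among them Pkm (2.90-fold, 2.26 to 3.77) and Gapdh (2.13-fold, 1.85 to 2.45), and 1 was lower, Pfkfb3, which makes an activator of glycolysis (3.09-fold, 1.86 to 5.21). The Pfkfb3 log2 ratio was -0.59 at the least over the settings tried, and 3 cells held 50.0% of its injured UMIs.

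The ratios in the class were set beside those in the other endothelial classes pooled, whose makeup differs between the libraries: EC_IMMAT, EC_TIP and EC_PROLIF were mostly injured and EC_BAR mostly intact. Of 5629 genes measured in both, the ratio in EC_CAP-PV- was at least 2-fold higher for 182 (3.23%) and at least 2-fold lower for 179 (3.18%). With only classes of at least 20 cells in both libraries, weighted equally, a choice made after seeing the data, the counts were 109 and 197. That choice also changes which genes count as measured. Cldn5 had a log2 ratio of -0.06 in the class and -2.34 in the others. Single classes differed: Cldn5 was at 2046 CPM in injured and 4385 CPM in intact EC_ART cells, and at 2288 CPM and 5057 CPM in EC_BAR. It was at 363 CPM in injured and 3504 CPM in intact EC_VEN-PV- cells, and at 75.9 CPM and 48.3 CPM in EC_VEN-PV+. Lgals3, which encodes galectin-3, had log2 ratios of 2.96 and -1.41, and Glul, glutamine synthetase, 1.46 and -1.74, so both were higher in injured cells of the class and lower in injured cells of the pooled rest. Car4 (-1.68 and -5.39) and Fmo2, another flavin monooxygenase (-2.35 and -4.71), were lower in both and less so in the class. The injured Car4 level behind its difference of 3.70 rests on few cells, since 3 cells held 83.0% of its injured UMIs. The difference was 0.84 without cells holding at least 5 UMIs of other cell types, a setting chosen after seeing the data. That setting left out 26 of 76 injured cells of the class. It also left out 40 of 44 intact EC_VEN-PV- and 136 of 181 intact EC_BAR cells, classes high in Car4. Tmem252 (4.23 and 1.20) and Lrg1 (2.98 and 0.69) were higher in both and more so in the class.

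In the other direction stood genes of the intact class and genes that other classes carried after injury. Slc28a2 had log2 ratios of -3.86 in the class and -0.22 in the others, Cxcl9 -2.48 and 1.19, Kcna5 -2.31 and 0.52, Lpl -2.48 and -0.28, and Arhgap18, a GTPase-activating protein, -1.12 and 1.09. Fscn1, an actin-bundling protein of cell protrusions, had log2 ratios of 0.75 in the class and 3.10 in the others, Aplnr, the apelin receptor, 0.18 and 2.32, and the tetraspanin gene Tspan6 1.14 and 3.17. The Tspan6 difference lay between -2.60 and -0.61 over the settings tried. Intact capillary cells already held Fscn1 at 185 CPM and Aplnr at 438 CPM, against 21.9 CPM and 98.9 CPM in the other intact classes. Per class, Plvap had ratios of 3.02 (2.65 to 3.46) in EC_CAP-PV-, 0.766 (0.735 to 0.799) in EC_VEN-PV+, 17.0 (11.2 to 27.2) in EC_ART, 16.8 (11.1 to 27.0) in EC_VEN-PV- and 45.7 (29.5 to 74.2) in EC_BAR.

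**Figure D5:**
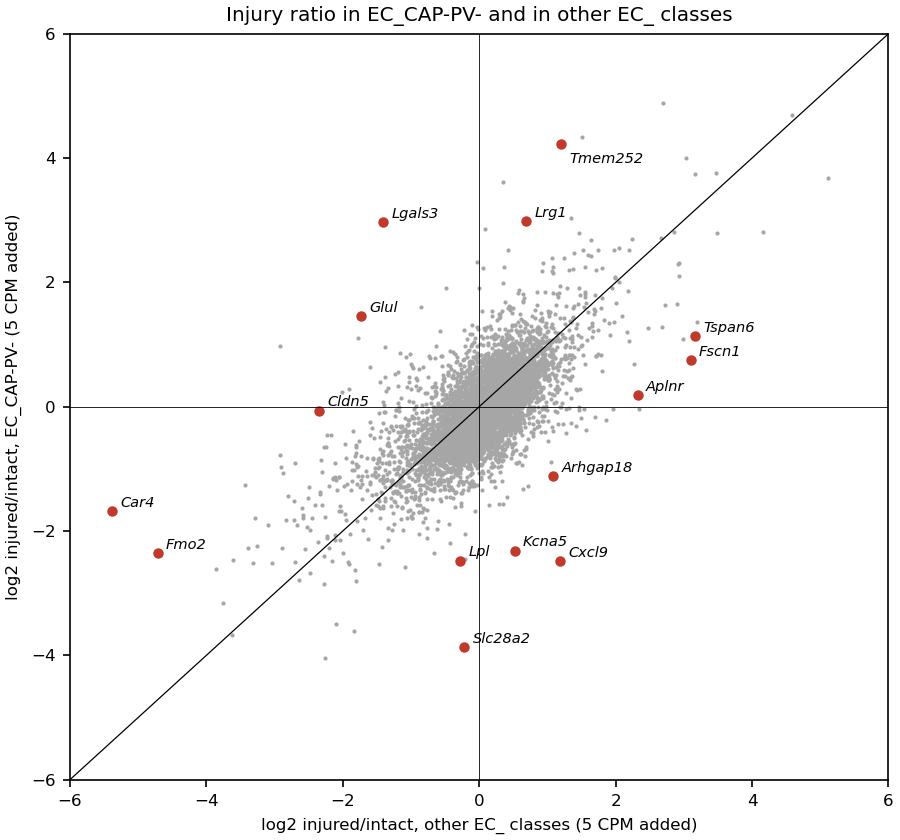
Each grey point is a gene averaging 20 CPM or more in both comparisons, with its log2 ratio of injured over intact CPM (5 CPM added) in EC_CAP-PV- on the vertical axis and in the other endothelial classes pooled on the horizontal axis. Red points are named genes, 7 above and 8 below the diagonal line of equal ratios, such as Lgals3 (2.96 and -1.41) above and Cxcl9 (-2.48 and 1.19) below.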

How the data were processed

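Cells sorted from injured and intact nerve were profiled with 10x single-cell RNA sequencing, 1 library per condition. The values are UMI counts per gene and cell as the authors deposited them. Cell Ranger 3.0.2 wrote the matrices, per the file headers. Cell Ranger 6.1.2, Seurat 4.0.1 and the mm10 (GRCm38) build are named in the submitters' processing notes, and the sources used here do not give how the classes were made. Class names came from the deposited cell table.

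UMIs were summed per class and library and scaled to CPM, counts relative to all UMIs of the class. A gene averaging 20 CPM or more counted as measured, and a log2 ratio with 5 CPM added of at least 2-fold counted as called. Named genes reached 100 CPM and 30 UMIs in whichever library was higher: the 12 highest and 12 lowest for injury, the 10 highest and 5 lowest for the class in each library, the 8 highest and 8 lowest differences, and up to 3 genes per list and direction, with a few further members given as values. Intervals were exact at 95%: Poisson for levels, conditional binomial for ratios, Clopper-Pearson for shares, and they cover counting error only. Against 0 counts, 3 counts over the group were taken as the limit. Doublets were scored with Scrublet and not removed. Thinning to 2000 UMIs left out shallower cells. A gene that the rule names is not reported here. The ratio and interval calculations were tested on simulated counts drawn without variation between cells. That test does not cover genes whose UMIs lie in few cells. Python 3.11.15, numpy 2.4.6, scipy 1.17.1, pandas 2.3.3 and scanpy 1.11.5 were used, and figures were drawn with matplotlib 3.10.9. The members and gene lists were chosen with earlier results of these data known.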

Additional observations from a re-analysis of the deposited data

Results flagged for a closer look

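In 4 genes the injured over intact log2 ratio had opposite signs in EC_CAP-PV- and in the other endothelial classes pooled, each past 2-fold. With 1 library per condition these differences were not tested, and the makeup of the pooled classes differs between the libraries. Lgals3 had a log2 ratio of 2.96 in EC_CAP-PV- and -1.41 in the other classes. Single classes gave Lgals3 log2 ratios of 0.64 in EC_ART, 0.57 in EC_BAR, -1.91 in EC_VEN-PV+ and -0.45 in EC_VEN-PV-. Glul had a log2 ratio of 1.46 in EC_CAP-PV- and -1.74 in the other classes, with -0.56 in EC_ART, -0.15 in EC_BAR, -0.41 in EC_VEN-PV+ and -1.76 in EC_VEN-PV-. Fam181b had a log2 ratio of 1.11 in EC_CAP-PV-, at 77.0 CPM in injured and 32.9 CPM in intact cells, and -1.77 in the other classes. Arhgap18 had a log2 ratio of -1.12 in EC_CAP-PV- and 1.09 in the other classes, with -0.39 in EC_ART, -0.38 in EC_BAR, 0.39 in EC_VEN-PV+ and 0.58 in EC_VEN-PV-.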

How the results depend on the processing

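No paired analysis was possible because each condition was 1 library. All 84 called injured over intact ratios of the named genes kept their sign under each of 13 settings, and 78 to 84 of them stayed past 2-fold. These genes were picked for ratios past 2-fold in the same data, so this is a description and not a test. Changing the minimum level or leaving out called doublets could not alter these ratios, since no cell of the class was a called doublet. Jam2 (-0.97), Cavin3 (0.93) and Gapdh (0.90) were among those with log2 ratios under 2-fold in at least 1 setting. Counts of genes moved more. Several settings also change which genes count as measured, and the numbers measured under them are not given here. The counts are therefore not shares and do not show that more or fewer genes differed. Thinned cells hold fewer UMIs, and the part of counting error in their counts was not tested. The counts are given here as higher and lower, against 326 and 487 for injury, 84 and 118 for the class in injured nerve, 266 and 272 for the class in intact nerve, and 182 and 179 for the difference. Thinned to 2000 UMIs per cell they were 680 and 864, 285 and 354, 590 and 436, and 472 and 632. With no minimum level they were 750 and 1086, 142 and 353, 520 and 699, and 603 and 769. With a mean of at least 50 CPM they were 171 and 263, 50 and 49, 166 and 137, and 88 and 49. With 20 CPM added they were 174 and 265 for injury and 93 and 70 for the difference, with 68 lower for the class in injured nerve and 162 higher in intact nerve. With cells under 5% mitochondrial UMIs the class had 459 higher genes in intact nerve and the difference had 286 and 302. With the mean of per-cell CPM the class had 433 higher genes in intact nerve and the difference had 308 lower genes. In cells with at least 3000 UMIs the ratio of the class's share was 0.474, against 0.335. Of the settings chosen after seeing the data, leaving out cells with at least 5 UMIs of other cell types gave 157 higher genes for the class in injured nerve and 294 and 326 for the difference, and equal weighting of classes gave 109 higher genes for the difference. The first of these settings left out 762 of 1274 injured and 403 of 718 intact endothelial cells. Under equal weighting the log2 ratio of Hist1h2ap, a histone gene, in the class over the others in injured nerve was 0.51, against -4.09, since EC_PROLIF has under 20 intact cells and is not among the classes weighted. Car4 and Btnl9 depended on shared barcodes: without every shared barcode their injury log2 ratios were -2.56 and -2.45, against -1.68 and -1.37. List medians of BMP and TGF-beta (-0.40 to 0.13), adhesion and chemokine (-0.54 to 0.75) and secreted-factor genes (-0.07 to 0.12) changed sign within the settings. Depth limits the intact cells most, where 1 UMI in the class is worth 2.06 CPM.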

Other observations

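Barcodes that the deposited cell table does not annotate also held capillary markers. At least 4 of the 6 markers were detected in 14 of 516 such injured barcodes (2.71%, exact interval 1.49 to 4.51) and in 28 of 738 such intact barcodes (3.79%, 2.54 to 5.44). They are not counted in the class.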
